A study of Rattus norvegicus with 18 samples.

Results

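The 9 genes with the deepest drops after 24 h of aristolochic acid were Ank2, Sh3kbp1, Rnf180, Robo2, Cfap69, Slc9a9, Map2k6, Arhgap26 and Mob1b. They were selected on measured values, namely as the 9 most negative differences between treated and solvent cells at 24 h among genes past the test then, and many of them were known to be long. The array carried 17 probe sets whose only gene symbol was one of these 9, out of 20832 probe sets with a single symbol. Of the 17, 11 reached log2 4 on at least 3 arrays and entered the tests, together with 12499 other probe sets. The cells were NRK-52E, an established epithelial line from the kidney of an Osborne-Mendel rat. Treated groups, called AA, had 1.65 µM aristolochic acid dissolved in DMSO at 0.1%, the concentration that inhibited the line by 10% after 72 h, and control groups, called DMSO, had the solvent at 0.1% only. Cells were grown to confluence, and RNA was taken after 6, 24 or 72 h, giving 6 groups of 3 arrays and 18 arrays in all. Every comparison is within this single line. Replicates are named as biological, with no word on plates or days, so the tests measure the spread between 3 samples, which may in part be technical.

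Aristolochic acid, a nitrophenanthrene from birthwort plants, is reduced in cells to a form that binds adenine and guanine in DNA. Such bulky adducts can stop RNA polymerase on the transcribed strand. The genes fall into several classes of protein. Ankyrin-2 (Ank2) ties ion transporters to the spectrin skeleton, and the Sh3kbp1 product CIN85 is an adaptor that joins Cbl ubiquitin ligases to the endocytic machinery. Robo2 is a receptor for the SLIT guidance proteins with a part in kidney development, and Slc9a9 (NHE9) is a sodium-proton exchanger of endosomes. Rnf180 is a ring finger ubiquitin ligase, and Map2k6 (MKK6) is a kinase that activates p38. Mob1b is a co-activator of the LATS kinases of the Hippo pathway, Arhgap26 (GRAF1) is a RhoGAP, and Cfap69 is a protein of cilia and flagella.

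The values were the authors' deposited log2 values after GCRMA, in which probe sets without signal settle near log2 2, so a level under log2 4 is close to the floor and a difference against it depends on the background correction. The array medians lay between log2 4.03 and 4.20, and the number of arrays limits the precision, with the floor. AA 6 h replicate 3 stood apart from its group on the fourth principal component, at -31.79 against -8.86 and -12.61, so results at 6 h are given with and without it. Cdkn1a, the p53 target p21, rose at each time (log2 difference 0.68, 1.12 and 3.71). The line's label as proximal tubule was borne out only in part by its markers. Krt8 averaged log2 13.57 and Cdh2 7.40, but Krt18, Cdh1, Epcam, Pax2 and Pax8 lay at the floor. Of 12 proximal tubule markers only Aqp1 and Ggt1 passed the filter, and of 9 fibroblast markers Col1a1, Col1a2, Col3a1 and Postn did, while Pdgfra, Pdgfrb, Thy1, Dcn and Lum did not. At 72 h the summed level of the 12 proximal tubule markers ranged from log2 8.63 to 8.71 in DMSO and from 6.96 to 7.03 in AA, carried by Aqp1, and that of 9 fibroblast markers from 14.70 to 14.87 and from 14.36 to 14.61. The sum of 7 epithelial and renal lineage markers, carried by Krt8, went from a range of 12.61 to 12.83 in DMSO to one of 13.17 to 13.37 in AA. The sum of 4 endothelial markers, carried by Tek with the rest at the floor, went from a range of 6.35 to 6.59 to one of 4.81 to 5.10, and that of 4 immune markers, where Cd68 was the one past the filter, from 4.87 to 5.09 to 5.72 to 5.99. The beta-actin control's 3' minus 5' log2 difference, a sign of RNA quality, was 2.0 ± 0.16 (SD, n = 3) in AA 72 h against 1.35 ± 0.09 in DMSO 72 h, with group means of 1.15 to 1.23 at the earlier times. The part of these shifts in the 72 h results below was not tested.

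At 24 h the selecting differences ran from -1.03 (Robo2) to -1.63 (Slc9a9), with a median of -1.19 over the 9 genes. With values under log2 4 set to 4, that of Arhgap26 was -0.17 (-1.29 as first given), that of Map2k6 -0.13 (-1.15) and that of Slc9a9 -0.69 (-1.63). In the same comparison 0.256% of tested probe sets passed the test as lower (limma, adjusted p under 0.05), and since it chose the genes nothing is read from their count. Of 20 genes called lower at 24 h, these took ranks 1 to 9. Just inside lay Robo2 at -1.03 ± 0.23 (SE) and Ank2 at -1.06 ± 0.20. Just outside lay Sgpl1 at -0.95 ± 0.22, Plcb4 at -0.84 ± 0.15 and Tbc1d4 at -0.80 ± 0.19. Robo2 and Sgpl1, the nearest on either side, differed by less than the standard error of each.

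**Figure D1:**
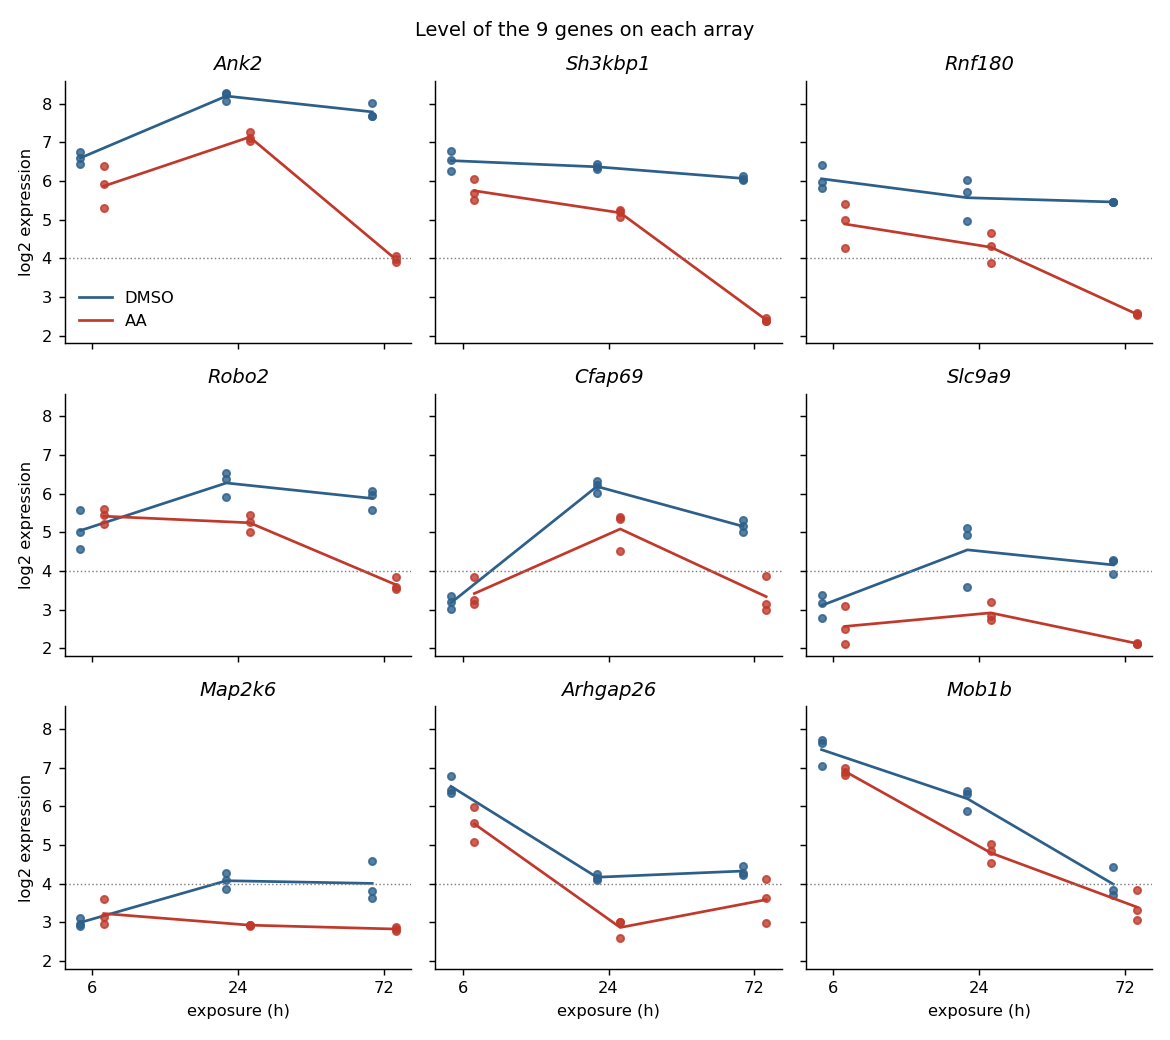
Log2 expression of the 9 genes, each by its probe set of highest mean, on every array at 6, 24 and 72 h of exposure; points are arrays, lines join the means of the 3 DMSO (blue) and 3 AA (red) arrays, and the dotted line marks log2 4. For Ank2, Sh3kbp1, Rnf180 and Robo2 the treatments lay furthest apart at 72 h. Mob1b and Arhgap26 were lower at 72 h than at 6 h in both treatments.

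Ank2, the membrane-skeleton anchor, had the most negative difference of the 9 genes at 72 h. It differed from that of Sh3kbp1 1387957 (-3.67 ± 0.16, AA at the floor) by less than the standard error of each. Ank2 at 6 h read log2 6.60, 6.76 and 6.44 on the DMSO arrays and 6.38, 5.92 and 5.30 on the AA arrays. By 24 h DMSO had moved to 8.26, 8.06 and 8.28 and AA to 7.27, 7.03 and 7.12. At 72 h DMSO read 7.69, 8.01 and 7.68 and AA 3.98, 3.90 and 4.07. The treatments did not overlap at any time, and solvent cells gained signal after 6 h while AA cells first gained and then lost it. The log2 difference was -0.74 ± 0.20 at 6 h, -1.06 ± 0.20 at 24 h and -3.81 ± 0.20 at 72 h. The last was the 16th most negative of the 12510 probe sets. With values under log2 4 set to 4, the 72 h difference of Ank2 was -3.77, the AA arrays lying near that limit. Its 72 h difference passed limma's test (adjusted p = 3.63e-11), as did that at 6 h (adjusted p = 0.014), but the latter was -0.46 without AA 6 h replicate 3 (adjusted p = 0.0923). Leaving out DMSO 6 h replicate 2 also ended the 6 h call, at -0.66 (adjusted p = 0.0591). Ank2 was the one gene of the 9 with a pair of further probe sets at the floor on all arrays, numbers 1396612 and 1398125, with levels between log2 2.02 and 2.82.

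Sh3kbp1, the CIN85 adaptor, was measured by a pair of probe sets above the filter. Probe set 1387957 of Sh3kbp1 read log2 6.26, 6.55 and 6.79 in DMSO and 5.50, 6.06 and 5.69 in AA at 6 h. A day into exposure it read 6.43, 6.36 and 6.32 in DMSO and 5.08, 5.21 and 5.25 in AA. At 72 h it read 6.13, 6.04 and 6.05 against 2.47, 2.37 and 2.38. Solvent cells changed by -0.46 from 6 h to 72 h (limma adjusted p = 0.0163), and exposed cells ended at the floor. The differences were -0.78 ± 0.16 at 6 h (limma adjusted p = 0.00321), -1.19 ± 0.16 at 24 h and -3.67 ± 0.16 at 72 h (adjusted p = 3.4e-12). Since AA was at the floor, the last has no exact fold; with values under log2 4 set to 4 it was -2.07. This was the one probe set of the 11 whose 6 h call held without AA 6 h replicate 3, at -0.75 (adjusted p = 0.0189), but with only the 6 h arrays fitted its adjusted p was 0.053.

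The weaker Sh3kbp1 probe set, 1370419, read log2 4.65, 4.5 and 5.66 in DMSO and 4.48, 4.19 and 4.52 in AA at 6 h, where the groups overlapped. By 24 h it read 5.34, 5.15 and 4.43 against 4.05, 4.02 and 3.56, and by 72 h 4.37, 4.46 and 4.34 against 2.52, 2.30 and 2.52. Its differences of -0.54 ± 0.27 (limma adjusted p = 0.156), -1.09 ± 0.27 and -1.94 ± 0.27 (adjusted p = 1.1e-05) ran in the same order as those of the other probe set. The 72 h value was smaller than that of 1387957, and its AA level was at the floor too.

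Robo2, the SLIT receptor, began with no difference past the test. Robo2 at 6 h, by probe set 1379693, read log2 5.59, 5.01 and 4.57 in DMSO and 5.21, 5.61 and 5.45 in AA. Robo2 at 24 h read 6.55, 6.37 and 5.91 against 5.01, 5.28 and 5.46, and at 72 h 5.59, 5.98 and 6.08 against 3.84, 3.53 and 3.58. The groups overlapped at 6 h and lay apart at both later times. The log2 difference of 0.37 ± 0.23 at 6 h (95% interval -0.12 to 0.86, limma adjusted p = 0.269) became -1.03 ± 0.23 and then -2.23 ± 0.23 (adjusted p = 3.81e-07). Another Robo2 probe set, 1382632, stayed between log2 3.48 and 4.25 on the 18 arrays and showed differences of 0.25, 0.22 and 0.05, the last with a 95% interval of -0.36 to 0.47. The remaining one, 1379750, was below the filter and reached log2 4 on 1 array, DMSO 24 h replicate 1 at 4.60, with differences of 0.32, -0.57 and -0.24. Both lay near the floor in each treatment, so the fall rests on 1379693.

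Slc9a9, the endosomal exchanger, was close to the floor in every AA group. Slc9a9 at 6 h read log2 3.38, 3.18 and 2.79 in DMSO and 2.49, 3.09 and 2.11 in AA. Slc9a9 at 24 h read 5.12, 4.94 and 3.60 against 3.19, 2.84 and 2.74, and at 72 h 4.29, 4.26 and 3.92 against 2.12, 2.12 and 2.14. Only 4 DMSO arrays and no AA array brought this probe set, 1378131, over the filter, so it had to be lower in AA somewhere to be tested at all. The differences were -0.55 ± 0.32 (limma adjusted p = 0.225), -1.63 ± 0.32 and -2.03 ± 0.32, the last a description for that reason, and with values under log2 4 set to 4 the 72 h difference was -0.18 (adjusted p = 0.471). Its further probe set, 1380531, lay at the floor.

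Rnf180, the ubiquitin ligase, had its deepest drop at the last time. Rnf180 at 6 h read log2 5.97, 6.41 and 5.82 in DMSO and 5.41, 4.99 and 4.28 in AA. Rnf180 at 24 h read 6.02, 5.71 and 4.97 against 4.66, 4.33 and 3.89, and at 72 h 5.47, 5.45 and 5.45 against 2.54, 2.55 and 2.59. No AA array reached a DMSO array of its own time. The differences were -1.17 ± 0.28 at 6 h, already close to the -1.27 ± 0.28 at 24 h, and -2.90 ± 0.28 at 72 h (limma adjusted p = 1.41e-07). AA was at the floor by then, and with values under log2 4 set to 4 the last was -1.46 (adjusted p = 0.000238). The 6 h difference passed limma's test (adjusted p = 0.00773) and was -0.87 without AA 6 h replicate 3 (adjusted p = 0.0588).

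Cfap69, the ciliary protein, rose in solvent cells from 6 h to 24 h and was lower again, though above its 6 h level, at 72 h. Cfap69 at 6 h read log2 3.19, 3.01 and 3.35 in DMSO and 3.86, 3.14 and 3.25 in AA, by probe set 1384846. At 24 h it read 6.32, 6.02 and 6.22 against 5.36, 5.39 and 4.51, and at 72 h 5.00, 5.17 and 5.32 against 3.88, 3.15 and 2.99. Both treatments sat near the floor at 6 h, both were higher at 24 h, and AA cells were back under log2 4 at 72 h. The differences were 0.23 ± 0.26 (limma adjusted p = 0.553), -1.10 ± 0.26 and -1.82 ± 0.26 (adjusted p = 1.56e-05). A second probe set, 1390810, stayed at the floor.

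Map2k6, the p38 activator, was weakly expressed and crossed log2 4 on 3 DMSO arrays only. Map2k6 at 6 h read log2 2.95, 2.92 and 3.12 in DMSO and 2.95, 3.13 and 3.60 in AA. At 24 h it read 4.28, 4.09 and 3.86 against 2.91, 2.94 and 2.94, and at 72 h 4.58, 3.63 and 3.82 against 2.79, 2.83 and 2.87. The solvent mean went from log2 3.0 at 6 h to 4.08 at 24 h and 4.01 at 72 h, with some arrays still under log2 4. Exposed cells stayed under log2 4 throughout. The differences were 0.23 ± 0.22 (limma adjusted p = 0.484), -1.15 ± 0.22 and -1.18 ± 0.22, so that the 72 h value lay within 1 standard error of that at 24 h. With values under log2 4 set to 4 the 72 h difference was -0.19 (adjusted p = 0.26). Because no AA array reached the filter, a lower AA level was partly a condition of being tested, and the 72 h value is given as a description.

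Arhgap26, the RhoGAP, dropped from 6 h to 24 h in both treatments and did not drop further by 72 h. Arhgap26 at 6 h read log2 6.78, 6.43 and 6.36 in DMSO and 5.99, 5.56 and 5.09 in AA. At 24 h it read 4.26, 4.09 and 4.16 against 3.01, 3.02 and 2.60, and at 72 h 4.22, 4.29 and 4.47 against 2.99, 4.13 and 3.64. The AA arrays lay below all DMSO arrays at each time but came nearest to them at 72 h. The differences were -0.97 ± 0.25 (limma adjusted p = 0.0121), -1.29 ± 0.25 and -0.74 ± 0.25 (adjusted p = 0.0227). Without AA 6 h replicate 3 the 6 h value was -0.75 (adjusted p = 0.0851). The 72 h call ended without AA 72 h replicate 1, at -0.44 (adjusted p = 0.141), and without DMSO 72 h replicate 3, at -0.67 (adjusted p = 0.0743). A second probe set, 1393677, was at the floor.

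Mob1b, the Hippo co-activator, showed the steepest loss with time in solvent cells. Mob1b at 6 h read log2 7.72, 7.05 and 7.64 in DMSO and 7.0, 6.90 and 6.82 in AA. At 24 h it read 6.32, 5.88 and 6.41 against 4.86, 5.02 and 4.54, and at 72 h 4.43, 3.72 and 3.83 against 3.06, 3.32 and 3.83. At 72 h the treatments overlapped, with 2 of 3 AA arrays below every DMSO array. The differences were -0.56 ± 0.24 (limma adjusted p = 0.0947), -1.40 ± 0.24 and -0.59 ± 0.24. The last had an adjusted p of 0.0485 and was not past the threshold under 10 of 15 alternatives; leaving out single arrays gave -0.42 without AA 72 h replicate 1, -0.55 without AA 72 h replicate 2, -0.37 without DMSO 72 h replicate 1 and -0.67 without DMSO 72 h replicate 3.

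Whether these genes were lower for the first time at 24 h was checked on the 6 h arrays, and for some of them it was not so. At 6 h, 4 of 11 tested probe sets, of Ank2, Sh3kbp1, Rnf180 and Arhgap26, had already fallen in limma's test, where 11.2% of all 12510 were called lower. Without AA 6 h replicate 3 it was 1 of 11, and calls in either direction over all tested probe sets went from 2693 to 1040. For Robo2, Cfap69 and Map2k6 the 6 h estimate was above 0. The 95% intervals were -0.12 to 0.86, -0.31 to 0.78 and -0.23 to 0.70. The DMSO means of Cfap69, Map2k6 and Slc9a9 at 6 h were log2 3.18, 3.0 and 3.11, near the floor. A fall had little room to show there, so the 6 h arrays cannot decide the question for these genes. For Slc9a9 and Mob1b the 6 h estimate was below 0 without passing the test. With values under log2 4 set to 4, Mob1b passed as lower (-0.56, limma adjusted p = 0.0389), and the count was 5 of 11. Over all tested probe sets 2721 were called in either direction under that setting. Mob1b also passed without DMSO 6 h replicate 2 (-0.78, limma adjusted p = 0.0477).

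At 72 h, which took no part in the selection, 10 of 11 tested probe sets had fallen, against 22.0% of all 12510 tested probe sets. Leaving out Slc9a9 and Map2k6, which passed the filter through DMSO arrays alone, it was 8 of 9. The exception was Robo2 probe set 1382632. In RNA from whole cultures, fewer cells of a kind and less RNA per cell cannot be told apart. The counts describe what passed the filter. With values under log2 4 set to 4, 5 of 11 remained called, those of Ank2, Rnf180, Cfap69, Sh3kbp1 (1387957) and Robo2 (1379693). Over all tested probe sets 5669 were called in either direction under that setting (5732 as first given).

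**Figure D2:**
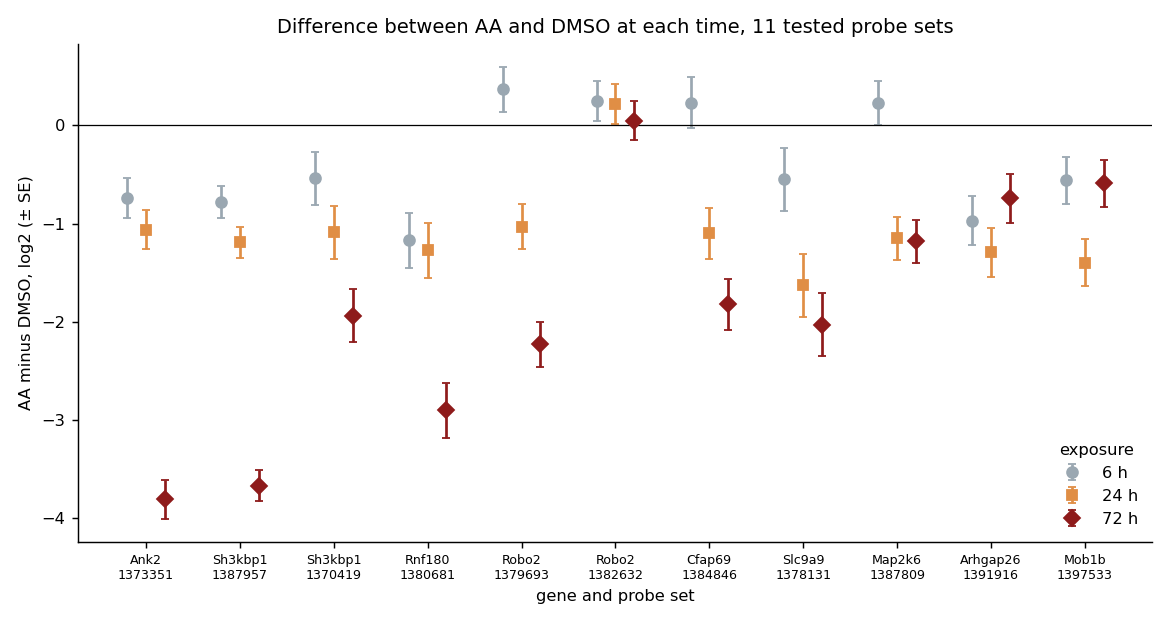
Log2 difference between AA and DMSO (vertical axis) for the 11 tested probe sets at 6, 24 and 72 h; points are estimates from the fit of all 18 arrays and bars are standard errors. The 24 h points chose the genes and carry no test. Ank2 and Sh3kbp1 reach -3.81 and -3.67 at 72 h, whereas Mob1b and Arhgap26 are nearer 0 at 72 h than at 24 h.

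Whether the fall deepened after 24 h differed from gene to gene. The difference between AA and DMSO changed from 24 h to 72 h by -2.75 ± 0.28 for Ank2, by -2.48 ± 0.23 and -0.85 ± 0.38 for the Sh3kbp1 probe sets 1387957 and 1370419, by -1.62 ± 0.40 for Rnf180 and by -1.20 ± 0.33 for Robo2 (1379693). Smaller changes were -0.72 ± 0.37 for Cfap69 and -0.40 ± 0.45 for Slc9a9. For Map2k6 the value was -0.03 ± 0.31. It was above 0, a narrower gap at 72 h, for Arhgap26 at 0.56 ± 0.36 and for Mob1b at 0.81 ± 0.33. The DMSO mean of Mob1b went from log2 6.2 at 24 h to 3.99 at 72 h, near the floor. Its value therefore cannot tell a smaller AA effect from a lack of room for a gap. These values hold the arrays on which the genes were chosen, so they have no test; 7 of 9 genes were below 0, with a median of -0.72. Much of the size depends on AA levels near the floor. With values under log2 4 set to 4, Ank2 was at -2.71, Sh3kbp1 1387957 at -0.88, Robo2 at -0.85 and Rnf180 at -0.22, whereas Cfap69 was at -0.06 and Arhgap26 at -0.11. Under that setting Sh3kbp1 1370419 (0.56) and Slc9a9 (0.50) were above 0, as Mob1b was (1.25). Of the 7 as first given, Slc9a9 and Map2k6 lay within 1 standard error of 0.

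A related question, whether the difference grew from 6 h to 72 h, was tested on group means other than those at 24 h, although the error came from all 18 arrays. The difference was more negative at 72 h in 8 of 11 probe sets, against 18.8% of all tested probe sets, and in 6 of 9 without those of Slc9a9 and Map2k6. With values under log2 4 set to 4 the count was 4 of 11: Rnf180 was then at -0.28 (limma adjusted p = 0.579), Slc9a9 at -0.18 (0.623), Map2k6 at -0.19 (0.446) and Sh3kbp1 1370419 at 0.15 (0.761). Arhgap26 passed the test under that setting in the other direction, at 0.69 (0.0323). Over all tested probe sets 4907 then passed in either direction (4918 as first given). Ank2 changed by -3.08 ± 0.28 (limma adjusted p = 1.73e-07), Sh3kbp1 1387957 by -2.89 ± 0.23 (2.92e-08) and Robo2 1379693 by -2.60 ± 0.33 (8.68e-06). Cfap69 changed by -2.06 ± 0.37, Rnf180 by -1.72 ± 0.40, Slc9a9 by -1.48 ± 0.45, Map2k6 by -1.41 ± 0.31 and Sh3kbp1 1370419 by -1.40 ± 0.38. Not past the test were Arhgap26, at 0.23 (95% interval -0.51 to 0.98), Mob1b, at -0.03 (-0.73 to 0.67), and Robo2 1382632, at -0.19 (-0.78 to 0.39). The count was 8 without AA 6 h replicate 3 too.

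In solvent cells 8 of 11 probe sets changed with time, a share near the 67.3% of all tested probe sets that did, and they did not share a direction. From 6 h to 72 h in DMSO, 5 of 11 probe sets rose, where 29.9% of all tested probe sets did: Cfap69 by 1.98, Ank2 by 1.19, Slc9a9 by 1.04, Map2k6 by 1.01 and Robo2 1379693 by 0.83. In the same comparison 3 of 11 fell, where 37.5% of all did, namely Mob1b at -3.48 (limma adjusted p = 5.74e-10), Arhgap26 at -2.20 and Sh3kbp1 1387957 at -0.46. Slc9a9 and Map2k6 passed the filter only through DMSO arrays at 24 h and 72 h. A rise after 6 h was therefore partly a condition of their being tested. With values under log2 4 set to 4, Slc9a9 was at 0.18 (limma adjusted p = 0.417) and Map2k6 at 0.19 (0.217). The count of 8 was 6 under that setting, whose share over all probe sets is not given. In AA cells over the same span 7 of 11 fell, against a background of 37.4%. These were Mob1b at -3.50, Sh3kbp1 1387957 at -3.35, Rnf180 at -2.33, Arhgap26 at -1.96, Sh3kbp1 1370419 at -1.95, Ank2 at -1.89 and Robo2 1379693 at -1.77. Mob1b thus lost as much in solvent as in AA, whereas Cfap69, up in solvent, was at -0.08 ± 0.26 in AA.

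Split at 24 h, the later step differed among genes as well. From 24 h to 72 h the Ank2 mean moved by -3.16 in AA and by -0.41 in DMSO, and the Sh3kbp1 1387957 mean by -2.77 and -0.30. Rnf180 moved by -1.73 in AA and -0.11 in DMSO. Mob1b moved less in AA, by -1.40, than in DMSO, by -2.21, and Arhgap26 moved up in AA, by 0.71, and by 0.16 in DMSO. The step after 24 h was thus a larger loss in AA than in DMSO for the first 3 genes and a smaller one for Mob1b. The Arhgap26 mean in AA went from log2 2.87 to 3.59, near the floor at both times, so no gain of expression is read from it.

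**Figure D3:**
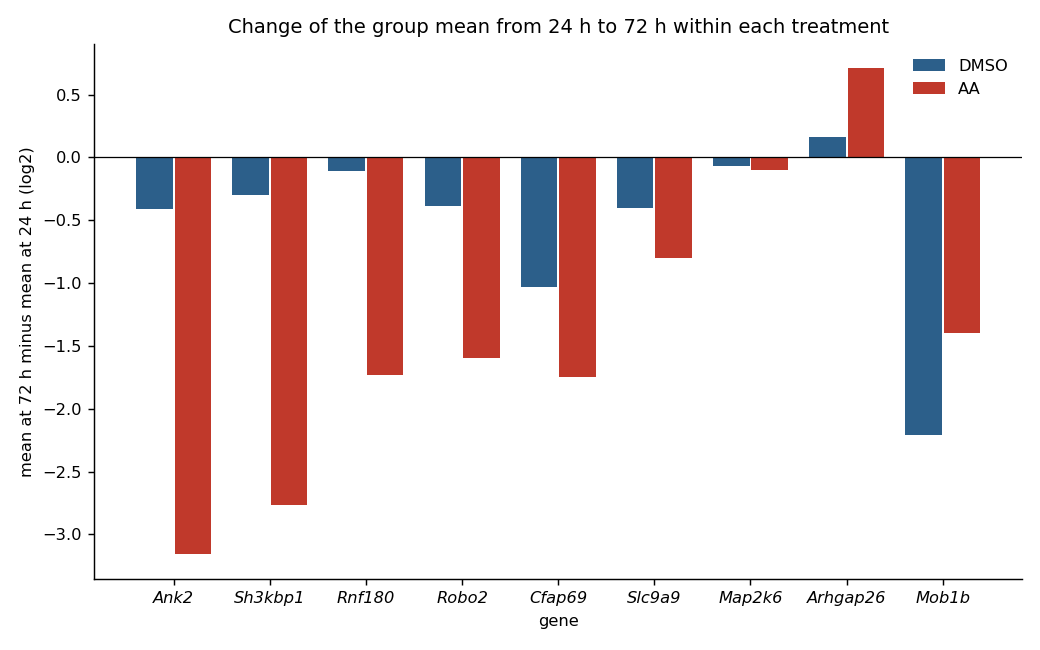
Change of the group mean between 24 h and 72 h in log2 units for the 9 genes, by probe set of highest mean, in DMSO (blue bars) and AA (red bars), with 3 arrays behind each mean. Ank2 shows -3.16 in AA and -0.41 in DMSO, while Mob1b shows -1.40 and -2.21.

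The sequence just before the start site is shown for Ank2 and Rnf180, which had more negative differences at 72 h than at 24 h (for Rnf180 mostly below log2 4), and for Map2k6 and Mob1b, which did not beyond the error. Each is 150 bases long, from RefSeq on assembly GRCr8, 5′ to 3′ and ending at the base before an annotated start. That start is not always the outermost of the gene, and the Rnf180 bases lie inside its span. Capitals mark a GC box (GGGCGG) or a CCAAT box (CCAAT) on either strand.
Ank2 (chr2:218628415-218628564, minus strand): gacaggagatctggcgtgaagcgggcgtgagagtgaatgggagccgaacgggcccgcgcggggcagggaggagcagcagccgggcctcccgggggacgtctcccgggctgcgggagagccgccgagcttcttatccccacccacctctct
Rnf180 (chr2:38244698-38244847, minus strand): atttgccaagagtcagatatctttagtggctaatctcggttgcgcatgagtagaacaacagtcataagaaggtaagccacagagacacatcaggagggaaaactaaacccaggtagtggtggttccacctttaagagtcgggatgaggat
Map2k6 (chr10:95872597-95872746, plus strand): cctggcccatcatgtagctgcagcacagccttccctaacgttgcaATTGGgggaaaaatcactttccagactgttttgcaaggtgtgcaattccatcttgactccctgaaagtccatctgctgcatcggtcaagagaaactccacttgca
Mob1b (chr14:19649920-19650069, minus strand): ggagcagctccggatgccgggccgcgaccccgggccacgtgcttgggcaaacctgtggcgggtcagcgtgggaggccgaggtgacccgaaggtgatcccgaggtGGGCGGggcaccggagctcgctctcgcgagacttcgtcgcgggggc
Ank2 and Rnf180 held neither motif in these bases, Map2k6 held 1 kind, a CCAAT box on the reverse strand, and Mob1b a GC box. A window was available for 8 of the 9 genes. Those of Rnf180, Robo2, Arhgap26 and Slc9a9 lay inside the gene's span, before an internal start. In the 250 bases before the start, a GC box was found in 3 of the 8 (Arhgap26, Mob1b and Robo2), against 30.5% of 33469 rat windows, and a CCAAT box in 2 (Arhgap26 and Map2k6), against 34%. TATAAA, the TATA box, was in Rnf180 (12.9% of windows), and CACGTG, the E-box, and GGAATG, the TEAD site, were in Mob1b (5.59% and 12.1%). TGANTCA, the AP-1 site, and TGACGTCA, the cAMP response element, were in none of the 8 (6.34% and 1.59% of windows). All motifs were searched on both strands, none of them contains another, and no motif was shared by more than 3 of the 8. GC content over 250 bases ranged from 44.4% in Slc9a9 to 69.2% in Robo2, around a median of 51.2% for all windows.

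Length was part of how these genes were described when chosen, so their spans are given as a description. Robo2 spans 1567.8 kb in GRCr8, Arhgap26 786.4, Ank2 575.9, Slc9a9 563.7, Sh3kbp1 345.1, Rnf180 180.8, Map2k6 115.0, Cfap69 70.9 and Mob1b 32.8 kb. Their median of 345.1 kb compares with 24.3 kb over 8985 tested genes with a span. Leaving the 9 out, 149 of 176 genes over 300 kb (84.7%) had fallen at 72 h, 504 of 983 between 100 and 300 kb (51.3%) and 1088 of 7817 under 100 kb (13.9%). At 24 h the same classes had 4 (2.27%), 2 (0.203%) and 5 (0.064%) called lower, and at 6 h 14 (7.95%), 135 (13.7%) and 881 (11.3%). Within the 9, Arhgap26, with the longest span but one, was at -0.74 at 72 h, where DMSO itself averaged log2 4.33, and Ank2, which ranked 3 in span, was at -3.81.

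**Figure D4:**
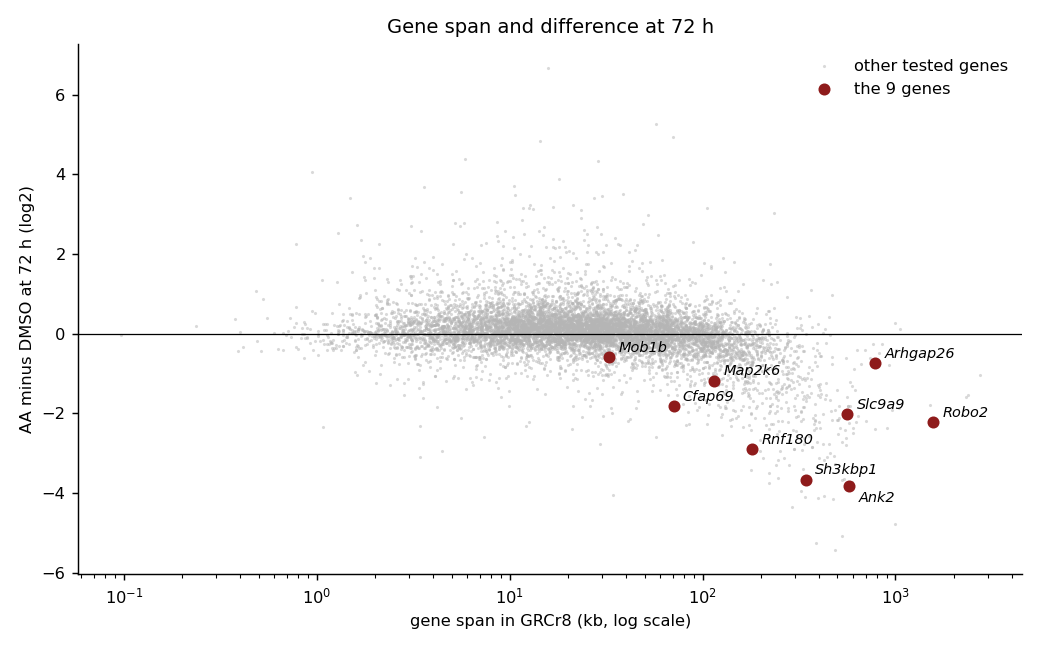
Log2 difference between AA and DMSO at 72 h against gene span in kb on a log axis; each grey point is 1 tested gene by its probe set of highest mean, and the 9 genes are in dark red. Most genes over 300 kb lie below 0, and Mob1b, with a span of 32.8 kb, lies among genes whose differences are near 0.

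The genes with profiles most like the average of the 9 (Pearson r over the 18 arrays, which share treatment and time, as a description) were Slc4a4 (0.932), Pcca (0.923), Wwox (0.922), Bckdhb (0.919) and Asph (0.918). Slc4a4 is a sodium bicarbonate cotransporter, Pcca and Bckdhb are subunits of mitochondrial enzymes, Wwox is a WW-domain oxidoreductase and Asph an aspartate hydroxylase. Their 72 h log2 differences were -2.76, -4.11, -0.78, -1.69 and -1.61. Among the 9 themselves, r with the mean of the other 8 was highest for Sh3kbp1 (0.911), Rnf180 (0.893), Robo2 (0.881) and Ank2 (0.861) and lowest for Arhgap26 (0.233), Mob1b (0.434) and Cfap69 (0.452).

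Close relatives of the 9 parted at 72 h, after differences at 24 h between -0.23 and 0.07. Ank3, the ankyrin-G gene, read log2 8.06, 8.23 and 8.09 in DMSO and 6.12, 5.66 and 5.91 in AA at 72 h, a difference of -2.23 ± 0.17 (limma adjusted p = 5.24e-09), after 0.56 at 6 h. Robo1 fell as well at 72 h, at -1.88 ± 0.25 (limma adjusted p = 7.77e-06), as did the RhoGAP gene Arhgap10, at -1.03 ± 0.14 (1.4e-05). The remaining relatives were above 0. Map2k3, the other main p38 activator, rose by 0.42 ± 0.08 (limma adjusted p = 0.000346), and Cd2ap, the CIN85-related adaptor, by 0.19 ± 0.07 (0.0312). Arhgap42 was at 0.16 ± 0.11 (0.258).

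The surrounding pathways, counted without the 9 genes themselves, did not move as 1 block. Over all 9016 tested genes, 2424 were higher and 1757 lower at 72 h, with a median log2 difference of 0.05. Of 12 tested genes of the ankyrin and spectrin skeleton, 8 fell and 1 rose (median -0.48), including the sodium-calcium exchanger Slc8a1 (-1.94), the adducin Add3 (-1.76) and dystrophin, Dmd (-1.55). Of 16 guidance genes of the SLIT, ROBO and netrin systems, 5 fell and 2 rose (median -0.05), with the ligand Slit2 at -1.18 and Srgap2 at -0.62. Among 24 genes of Cbl binding and receptor endocytosis, 8 fell and 5 rose (0.01), from the kinase regulator Pik3r1 (-1.58) and the receptor Met (-0.99) to the phosphatase Synj1 (0.82). Of 20 ciliary genes 5 fell and 2 rose (-0.23), among them the transport proteins Ift81 (-0.80) and Ift88 (-0.71).

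The other lists held more rises than falls, as did all tested genes (26.9% higher, 19.5% lower). Of 22 tested genes of the p38 cascade, 13 rose and 4 fell (median 0.35), with the phosphatase Dusp8 at 2.17, Gadd45g at 1.95 and Gadd45a at 1.37, while the transcription factor Mef2c fell (-1.81). In the Hippo list 13 of 28 rose and 4 fell (0.20), led by the YAP target Ankrd1 (2.81), and the kinase gene Stk3 was among the falls (-1.01). Of 15 genes of sodium-proton exchange and endosome acidification, 8 rose and the other 7 did not pass limma's test (0.30), including the proton pump subunits Atp6v0a1 (1.45), Atp6v1d (1.29) and Atp6v0c (0.74). Of 53 ring finger genes 15 rose (28.3%, near the share of all genes) and 6 fell (0.08). At 24 h, 1 tested gene of these lists passed limma's test, as higher, the 9 genes not being counted in them.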

How the data were processed

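Per the labels' protocols, labelled cRNA from 18 samples was measured on Affymetrix arrays for rat. The deposited values are log2 expression per probe set; GCRMA is named in the submitters' processing notes, with version and settings not given in the sources used here. Of 31099 probe sets, 20832 had 1 platform symbol, 436 several and 9831 none; 20764 of the 20832 matched current names in RefSeq (GRCr8). All 18 arrays were fitted in R 4.3.3 with limma 3.58.1, as 6 group means with an intensity trend (12 residual and 6.18 prior degrees of freedom), on the 12510 probe sets that reached log2 4 on 3 or more arrays. Adjustment was by Benjamini-Hochberg within each comparison, with a threshold of 0.05. A gene in counts of genes is its probe set of highest mean. Errors on differences are standard errors and on levels SDs. The fit was checked on simulated data.

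The genes and lists were chosen with earlier results of these data known, so their counts describe them. Named by rule were each probe set of the 9 genes, the next 3 falls at 24 h, the 5 most similar profiles, up to 4 largest changes per list at 72 h, and close relatives; Mob1a and Slc9a7 were not analysed here, and 1 list is not reported here. Same-numbered AA and DMSO arrays had correlated deviations of -0.15 to 0.195, so numbers were not used as pairs. Alternatives covered centring, quantile normalization, filters, the floor, 1 probe set per gene, the trend, the block, the arrays fitted and left-out arrays.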

Additional observations from a re-analysis of the deposited data

Results flagged for a closer look

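The difference between AA and DMSO itself differed between 6 h and 72 h, by limma's test of that change, in 8 probe sets. The changes were -3.08 for Ank2, -2.89 and -1.40 for the Sh3kbp1 probe sets 1387957 and 1370419, -2.60 for Robo2, -2.06 for Cfap69, -1.72 for Rnf180, -1.48 for Slc9a9 and -1.41 for Map2k6. Slc9a9 and Map2k6 passed the filter through DMSO arrays alone, so their values are a description. With values under log2 4 set to 4 they were at -0.18 (limma adjusted p = 0.623) and -0.19 (0.446). Rnf180 and Sh3kbp1 1370419 did not pass under that setting either. In the control probe sets, which no comparison used, the 3' minus 5' log2 difference of beta-actin averaged 2.0 in AA 72 h, above the 1.35 of DMSO 72 h. Its part in the 72 h differences was not tested.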

How the results depend on the processing

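Setting values under log2 4 to 4 left 5 of 11 probe sets called lower at 72 h (10 as reported) and 4 with a more negative difference at 72 h than at 6 h (8), and turned the change of Sh3kbp1 1370419 to 0.15 (adjusted p = 0.761); its AA level at 72 h lies under that limit. The median change from 24 h to 72 h was -0.11 with that floor (-0.72 as reported). It was -1.20 with a filter at log2 5, which left out Map2k6 and Slc9a9, so that median is over fewer genes. With only the arrays compared, 2 probe sets of the 9 genes were called lower at 6 h (4), and over all probe sets 786 were called at 6 h (2693) and 113 at 24 h (206); without a filter 117 were called at 24 h. The cause was not tested. Leaving out 1 array at a time gave 1 to 4 calls among the 9 genes at 6 h, 8 to 10 at 72 h, a median change after 24 h of -1.01 to -0.55, and over all probe sets 1040 to 3044 calls at 6 h and 89 to 206 at 24 h. The replicate number as a block left 4 calls at 6 h, 10 at 72 h and 8 in the change from 6 h; the numbers do not pair the samples, and the 1 call it changed was Rnf180 in DMSO from 6 h to 72 h, -0.61 with an adjusted p of 0.0252. Signal near the floor limits the low AA levels at 72 h.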
